A study of Mus musculus with 4 samples.

Results

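Complement transcripts of dural immune cells were described through 9 genes, chosen by name from the 55401 genes in the deposited table: the C1q chains *C1qa*, *C1qb* and *C1qc*, the central components *C3* and *C4b*, the alternative pathway genes *Cfp* and *Cfb*, and the anaphylatoxin receptors *C3ar1* and *C5ar1*. All 9 were found in the table and all passed the filter on low counts. The RNA came from CD45+ cells sorted from the dura mater of male wild-type C57BL/6J mice, injected at 4 weeks of age into the cisterna magna with 2 μl of an AAV9 vector. AAV-mVEGF-C (AAV-VEGF-C in the labels) encodes full-length mouse VEGF-C, a growth factor for lymphatic vessels. AAV-CTRL (AAV-Control in the labels) encodes a soluble protein that the paper names mVEGFR3 4–7-Ig. It holds outer domains of VEGFR-3, which do not bind VEGF-C, and an Ig part by its name. Both groups thus carry AAV9 and an overexpressed protein, and there was no uninjected group here. Each group has 2 libraries, each from a pool of 10 to 12 mice, which the titles number as separate experiments. The spread between libraries is thus a spread between pools and experiments, which cannot be told apart.

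Complement is a cascade of blood and tissue proteins that tags microbes, debris and synapses for removal. It starts through C1q bound to antibody or debris (classical pathway), through lectins and ficolins that bind sugars (lectin pathway), or by spontaneous turnover of C3 on surfaces (alternative pathway). All routes cut C3, which coats the target, and release the small fragments C3a and C5a, which act on receptors of myeloid cells. The liver makes most plasma complement, whereas C1q is made mainly by macrophages, including those of the brain borders, and by microglia.

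The comparison asked whether complement transcripts of dural leukocytes differed after VEGF-C delivery. None of the 9 genes differed between the groups beyond the spread of the libraries (edgeR quasi-likelihood test with Benjamini-Hochberg adjustment over 19806 genes, adjusted p = 0.999 for each). The edgeR test called 0% of all genes at an adjusted p under 0.05 (DESeq2 called 77 genes) and 2.64% at an unadjusted p under 0.05, and 0 of the 9 complement genes at either threshold, as did DESeq2 and limma-voom. Mean levels were lower with AAV-mVEGF-C for 8 genes and higher for *C5ar1*, with a median log2 fold change of -0.21, against 0.0034 over all genes tested. That median turned with single libraries: it was 0.09 without AAV-CTRL 2, 0.06 without AAV-mVEGF-C 1, -0.42 without AAV-CTRL 1 and -0.61 without AAV-mVEGF-C 2, and -0.14 with the replicate block. The gap between the AAV-CTRL libraries was larger than the difference between groups for 8 of the 9 genes. The gap between the AAV-mVEGF-C libraries was larger than that difference for 7. The share of all genes tested with such gaps was not computed, so these counts describe the 9 genes only.

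The libraries held 32520709 to 46409700 reads assigned to genes. AAV-CTRL 1 held the most reads but had a read in the fewest genes, 20990, against 32488 in AAV-CTRL 2. The AAV-mVEGF-C libraries 1 and 2 had a read in 37512 and 29221 genes. The cause of this difference was not tested. Levels of one gene are compared between libraries as CPM, its reads per 1000000 assigned reads, scaled by the trimmed mean of M values. Levels of different genes are compared only as TPM, transcripts per 1000000, which correct for transcript length. Sums over several members were also compared between libraries as TPM, and some single members on both scales. The leukocyte marker *Ptprc*, which encodes CD45, stood at 946 to 1151 CPM in every library. Defining markers of other cells were not at 0: a list of 10 fibroblast genes summed to 817 to 2127 CPM, and 8 endothelial genes summed to 59.4 to 79.6 CPM. In these bulk samples fewer cells of a type and less RNA per cell cannot be told apart.

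The C1q genes lie side by side on the minus strand of mouse chromosome 4 (GRCm38, the mm10 assembly). *C1qb* (ENSMUSG00000036905.8) spans chr4:136880129-136886187, *C1qc* (ENSMUSG00000036896.5) spans chr4:136889804-136893065 and *C1qa* (ENSMUSG00000036887.5) spans chr4:136895917-136898803. The gaps between them are 3616 and 2851 bases, and the whole cluster covers 18675 bases. The upstream windows of *C1qb* and *C1qc* are shown because these neighbours varied together across libraries, and that of *C3* because it varied differently. Each window holds the 250 bases before the RefSeq gene start, read 5′ to 3′ on the minus strand, at chr4:136886201-136886450 for *C1qb* and chr17:57228137-57228386 for *C3*. The RefSeq start of *C1qc* lies within the gene span given above, so that 151 bases of its window fall inside that span, and the 99 bases outside it are printed (chr4:136893066-136893164). RefSeq windows (GRCm38.p6) were matched for 6 of the 9 genes, *C1qb*, *C1qc*, *C3*, *C3ar1*, *C5ar1* and *Cfp*, but not for *C1qa*, *C4b* and *Cfb*. Capitals mark GAGGAA or its complement TTCCTC in the C1q windows, and TTGCNNAA, a C/EBP-type element, in the *C3* window. GAGGAA is a site type of the myeloid factor PU.1 and contains GGAA, the core shared by ETS factors.
C1qb: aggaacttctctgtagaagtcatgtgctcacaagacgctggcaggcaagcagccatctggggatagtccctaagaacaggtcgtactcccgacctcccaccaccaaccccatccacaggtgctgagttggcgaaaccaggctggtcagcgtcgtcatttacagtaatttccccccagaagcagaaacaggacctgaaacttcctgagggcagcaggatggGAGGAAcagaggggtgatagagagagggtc
C1qc: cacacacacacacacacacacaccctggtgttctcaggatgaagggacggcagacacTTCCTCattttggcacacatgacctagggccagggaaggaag
C3: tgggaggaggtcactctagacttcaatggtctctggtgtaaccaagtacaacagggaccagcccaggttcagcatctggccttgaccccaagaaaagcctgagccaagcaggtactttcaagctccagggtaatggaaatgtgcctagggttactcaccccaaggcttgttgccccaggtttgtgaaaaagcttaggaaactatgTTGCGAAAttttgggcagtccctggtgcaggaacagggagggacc
GAGGAA lies 30 bases before the start of *C1qb*, and TTCCTC lies 193 bases before the RefSeq start of *C1qc*. The TTGCNNAA match lies 45 bases before the start of *C3*. Searched on both strands, GAGGAA was present in 23.3% of 32851 windows of the same length and TTGCNNAA in 9.56%, with no overlap between the matches shown. No match to either full pattern was found in the windows of *C3ar1*, *C5ar1* and *Cfp*. The shorter GGAA was neither searched nor marked. These matches describe letters and not binding.

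C1qa, C1qb and C1qc are the chains that assemble into C1q, the recognition protein of the classical pathway. *C1qa* stood at 203 and 298 CPM in the AAV-CTRL libraries and at 158 and 272 CPM in the AAV-mVEGF-C libraries. *C1qb* stood at 242 and 324 CPM with AAV-CTRL and at 185 and 306 CPM with AAV-mVEGF-C. *C1qc* stood at 163 and 291 CPM with AAV-CTRL and at 144 and 247 CPM with AAV-mVEGF-C. In each chain library 1 was the lower of its group, AAV-mVEGF-C 1 was the lowest of the 4 and AAV-CTRL 2 the highest, so the groups overlapped. The sample titles number the libraries by experiment, but the deposited columns number them differently, so the pairing is uncertain. Between libraries of the same title number each chain was lower with AAV-mVEGF-C both times. The log2 differences were -0.37 and -0.13 for *C1qa*, -0.39 and -0.08 for *C1qb* and -0.18 and -0.24 for *C1qc*. With the experiment number as a block the unadjusted p for these chains was 0.239, 0.273 and 0.305 by edgeR. If AAV-CTRL 1 is paired with AAV-mVEGF-C 2 instead, each chain was higher with AAV-mVEGF-C in that pair. Between same-numbered libraries *C3*, *C4b*, *C3ar1*, *Cfp* and *Cfb* changed sign, with -0.69 and 0.47 for *C3*. The log2 fold change, AAV-mVEGF-C over AAV-CTRL, was -0.22 for *C1qa* (SE 0.31, unadjusted p = 0.50 by edgeR). It was -0.21 for *C1qb* (SE 0.28, unadjusted p = 0.492 by edgeR) and -0.21 for *C1qc* (SE 0.36, unadjusted p = 0.568 by edgeR). The 95% interval of the fold ran from 0.507 to 1.45 for *C1qa*. The direction turned when 1 library was left out: without AAV-CTRL 2 the log2 fold changes were 0.09, 0.031 and 0.27 for *C1qa*, *C1qb* and *C1qc*, and without AAV-mVEGF-C 1 they were 0.13, 0.12 and 0.13.

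**Figure D1:**
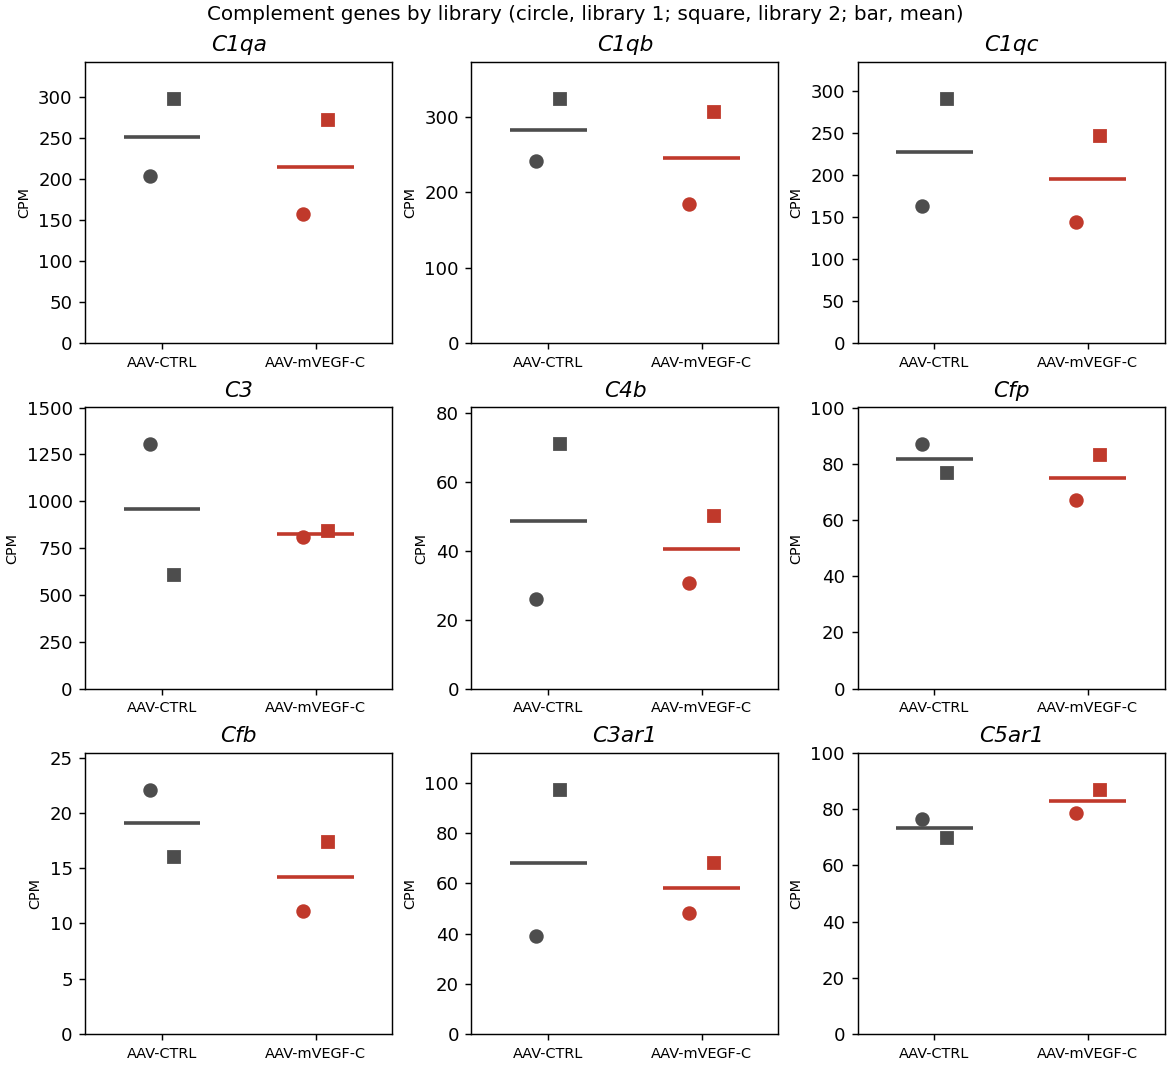
Level of each of the 9 complement genes in CPM (vertical axes, each starting at 0) in the AAV-CTRL (grey) and AAV-mVEGF-C (red) libraries, with circles for library 1, squares for library 2 and bars for the mean of 2 libraries. The groups overlap in every gene but *C5ar1*, where 78.8 and 87.0 CPM lie above 69.9 and 76.7 CPM.

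The proportions of the C1q chains varied less between libraries than their levels. Per length, *C1qa* was 0.836 to 0.919 times the TPM of *C1qb* in the 4 libraries, a 1.10-fold range. *C1qc* was 0.655 to 0.799 times the TPM of *C1qa*, a 1.22-fold range, and 0.548 to 0.735 times that of *C1qb*, a 1.34-fold range. Their summed level was 434 and 680 TPM with AAV-CTRL and 316 and 531 TPM with AAV-mVEGF-C, or 557 ± 174 (SD, n = 2) against 424 ± 152 TPM (SD, n = 2). The mean difference was -133 TPM (exact permutation test, two-sided, p = 0.667, with 0.333 the smallest p that 2 against 2 allows). In TPM 28.5% of all genes tested had both AAV-mVEGF-C libraries below both AAV-CTRL libraries, and 8.92% had both above.

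*C1qb*, *C1qa*, *C3* and *C1qc* were the most abundant of the 9 transcripts, at means over the 4 libraries of 194, 170, 146 and 127 TPM, which placed them 385th, 441st, 508th and 573rd in the table. Their ranges over libraries overlapped (*C1qb* 127 to 256, *C1qa* 107 to 236, *C3* 113 to 210, *C1qc* 82.2 to 188 TPM). Within each of the 4 libraries, however, *C1qb* was above *C1qa* and *C1qa* above *C1qc*, while *C3* lay above all chains in AAV-CTRL 1 and AAV-mVEGF-C 1 and below all of them in AAV-CTRL 2 and AAV-mVEGF-C 2. *Cfp* followed at a mean of 37.3 TPM, *C5ar1* at 23.8, *C3ar1* at 11.4, *Cfb* at 6.40 and *C4b* at 6.14 TPM. *Cfp* (30.5 to 41.7 TPM) lay above *C5ar1* (22.7 to 26.4 TPM) in every library, whereas the ranges of *C3ar1*, *Cfb* and *C4b* overlapped. Within each library *C3ar1* was above *C4b*. The C1q chains supplied 59.4% to 76.3% of the summed TPM of the 9 genes and *C3* 12.7% to 28.7%.

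**Figure D2:**
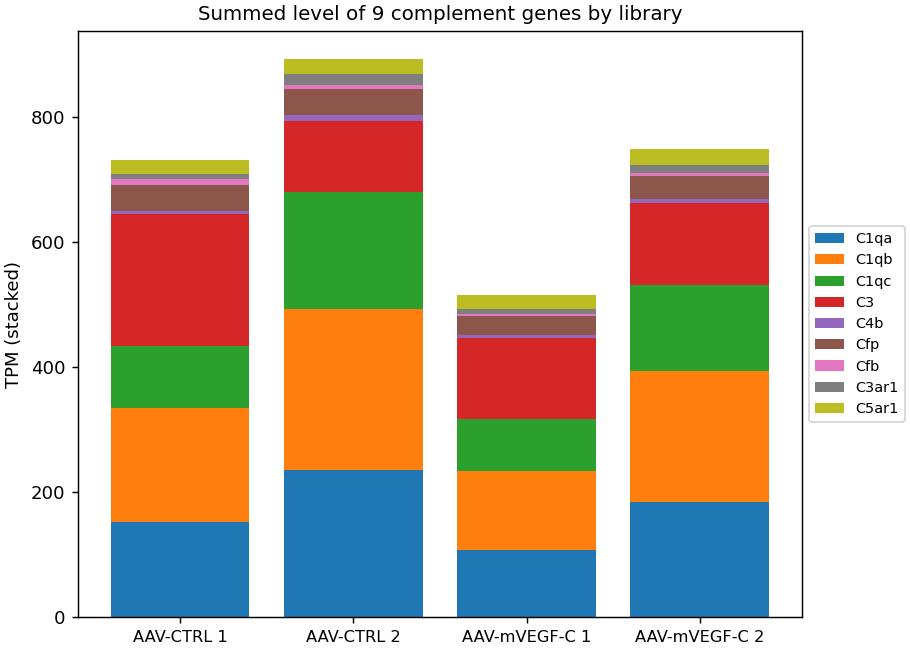
Summed level of the 9 complement genes in TPM (vertical axis) in each of the 4 libraries, stacked by gene. The C1q chains make up most of every bar, and the totals of 730 and 892 TPM with AAV-CTRL overlap those of 515 and 748 TPM with AAV-mVEGF-C.

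The sum over the 9 genes was 811 ± 114 TPM (SD, n = 2) with AAV-CTRL and 632 ± 165 TPM (SD, n = 2) with AAV-mVEGF-C. The difference was -179 TPM, and the libraries of the groups overlapped (exact permutation test, two-sided, p = 0.667, in a design that cannot go below 0.333). The lean of the TPM scale given for the C1q sum applies here too.

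C3 is the protein on which all complement routes converge, and its gene (ENSMUSG00000024164.15) lies at chr17:57203970-57228136. *C3* stood at 1305 and 609 CPM in the AAV-CTRL libraries and at 811 and 840 CPM in the AAV-mVEGF-C libraries. Both AAV-mVEGF-C libraries therefore lay between the AAV-CTRL ones, which differed 2.14-fold from each other. The log2 fold change was -0.21 (SE 0.35, unadjusted p = 0.563 by edgeR), with a 95% interval of -1.06 to 0.63. Among 9333 genes with at least 10 CPM, 96.6% had a smaller gap between the AAV-CTRL libraries than *C3*. The direction rested on library AAV-CTRL 1: without it the log2 fold change was 0.42. *C3* was highest where the C1q chains were low in the AAV-CTRL group, and its ratio to their summed TPM was 0.484 and 0.166 with AAV-CTRL and 0.412 and 0.246 with AAV-mVEGF-C, a 2.91-fold range.

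C4b is the mouse C4 that C1s and the lectin proteases cut, forming with C2 the enzyme that cuts C3. *C4b* (ENSMUSG00000073418.4, chr17:34728380-34743882) stood at 26.1 and 70.9 CPM with AAV-CTRL and at 30.6 and 50.1 CPM with AAV-mVEGF-C. The AAV-CTRL libraries lay outside the AAV-mVEGF-C ones on both sides and differed 2.72-fold, a gap larger than that of 98.6% of genes with at least 10 CPM. Its log2 fold change was -0.26 (SE 0.48, 95% interval -1.43 to 0.90, unadjusted p = 0.602 by edgeR). It was -0.83 without AAV-CTRL 1 (edgeR, adjusted p = 0.036) and 0.64 without AAV-CTRL 2 (edgeR, adjusted p = 0.117), in fits that assume the lone AAV-CTRL library to vary like the others and that called 412 and 2058 of all genes at an adjusted p under 0.05. The near-identical copy *C4a* lies 65209 bases away and held 1.12 to 2.30 CPM, and the reads of *C4b* were not whole numbers (1166.07 to 2437.45). Reads shared between the copies could have been assigned to either, how many was not measured, and the *C4b* level is uncertain to that extent.

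Properdin, the product of *Cfp*, stabilises the C3-cutting enzyme of the alternative pathway and is made by myeloid cells. *Cfp* (ENSMUSG00000001128.7, chrX:20925454-20931555) stood at 87.2 and 76.9 CPM with AAV-CTRL and at 67.2 and 83.3 CPM with AAV-mVEGF-C. All 4 libraries lay within a narrow range, and the log2 fold change was -0.12 (SE 0.18, 95% interval -0.56 to 0.31, unadjusted p = 0.508 by edgeR).

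Factor B, the product of *Cfb*, is the protease of that enzyme. *Cfb* (ENSMUSG00000090231.10, chr17:34856374-34862518) was the gene with fewest reads of the set, 433 to 989 per library. It stood at 22.1 and 15.99 CPM with AAV-CTRL and at 11.1 and 17.4 CPM with AAV-mVEGF-C, so that AAV-mVEGF-C 1 was the lowest library and AAV-mVEGF-C 2 lay within the AAV-CTRL range. The log2 fold change of -0.42 (SE 0.30, 95% interval -1.15 to 0.31, unadjusted p = 0.206 by edgeR) was the largest of the 9 in size. In TPM the *Cfb* libraries read 10.5 and 6.24 with AAV-CTRL against 3.29 and 5.52 with AAV-mVEGF-C, and no longer overlapped. The same held for *Cfp*, at 41.7 and 40.3 against 30.5 and 36.8 TPM. On the TPM scale, however, 28.5% of all genes tested had both AAV-mVEGF-C libraries below both AAV-CTRL libraries and 8.92% had both above, against 15.2% and 16.8% on the CPM scale. Factor D, encoded by *Cfd*, activates factor B, and it was represented by 1 read in AAV-CTRL 2 and none in the other libraries, where a count of 0 allows up to 0.0671 to 0.0947 CPM by counting error.

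The receptors for C3a and C5a are encoded by *C3ar1* (ENSMUSG00000040552.8, chr6:122847138-122856161) and *C5ar1* (ENSMUSG00000049130.6, chr7:16246743-16259540). *C3ar1* stood at 38.9 and 97.3 CPM with AAV-CTRL and at 48.1 and 68.1 CPM with AAV-mVEGF-C. As for *C4b*, the AAV-CTRL libraries lay outside the AAV-mVEGF-C ones on both sides, with a 2.50-fold gap. For *C3ar1* the log2 fold change was -0.23 (SE 0.43, 95% interval -1.27 to 0.81, unadjusted p = 0.610 by edgeR), and it was -0.76 without AAV-CTRL 1 (edgeR, adjusted p = 0.0344) and 0.59 without AAV-CTRL 2 (edgeR, adjusted p = 0.0958), in the same fits with a lone AAV-CTRL library as for *C4b*.

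*C5ar1* had the narrowest range over the 4 libraries and was the one member with a higher mean in the AAV-mVEGF-C group. It stood at 76.7 and 69.9 CPM with AAV-CTRL and at 78.8 and 87.0 CPM with AAV-mVEGF-C. Both AAV-mVEGF-C libraries were above both AAV-CTRL ones, as they were for 16.8% of all genes tested on this scale. For *C5ar1* the log2 fold change was 0.18 (SE 0.16, 95% interval -0.20 to 0.56, unadjusted p = 0.294 by edgeR). In TPM its libraries read 22.99 and 23.02 with AAV-CTRL and 22.7 and 26.4 with AAV-mVEGF-C, and overlapped. The receptors thus varied apart from each other: *C3ar1* was 0.295 and 0.827 times *C5ar1* in TPM with AAV-CTRL and 0.356 and 0.439 times with AAV-mVEGF-C.

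**Figure D3:**
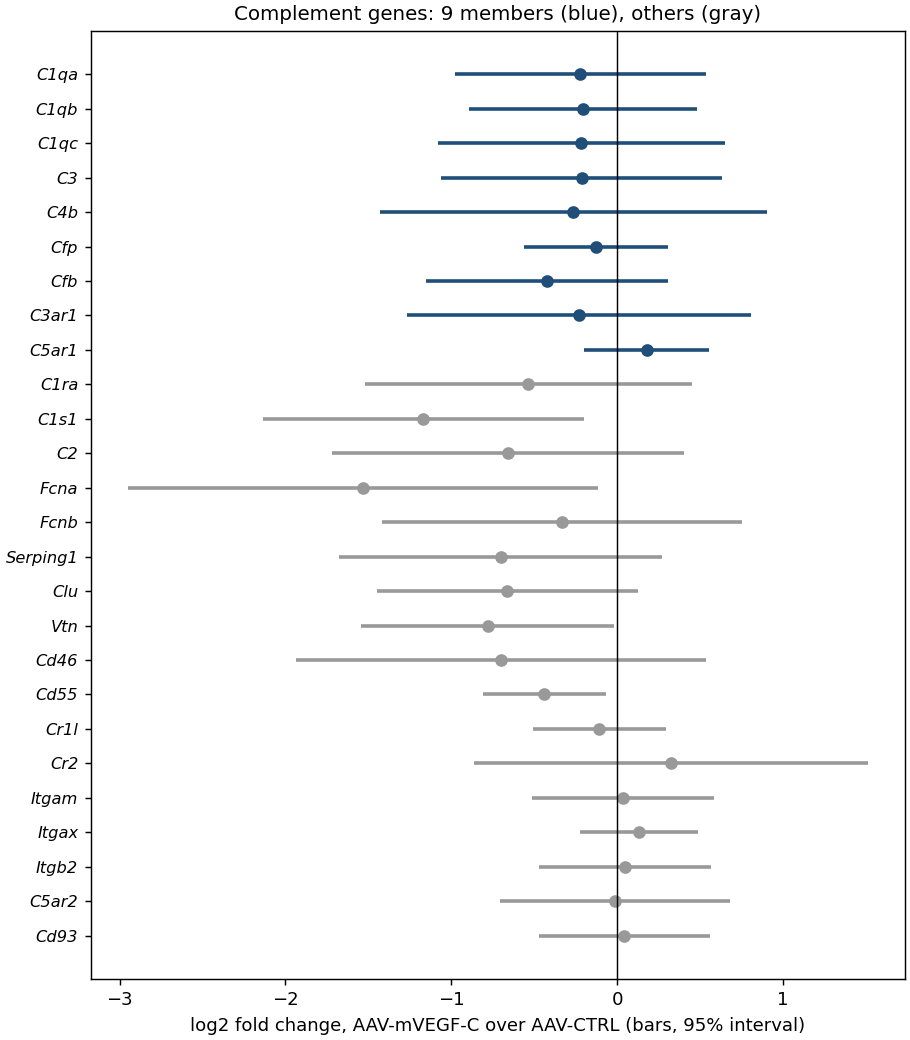
Log2 fold change, AAV-mVEGF-C over AAV-CTRL (horizontal axis), for the 9 complement genes (blue) and 17 of the 18 other complement genes tested at a mean of at least 1 TPM (grey; 1 is not reported here), with bars for the 95% interval from edgeR and 2 libraries per group. All blue intervals cross 0, and the intervals of *C1s1*, *Fcna*, *Cd55* and *Vtn* lie below 0 before adjustment for multiple testing.

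Across the 4 libraries the 9 genes fell into 2 sets by which AAV-CTRL library was the higher. The C1q chains, *C4b* and *C3ar1* were higher in AAV-CTRL 2, and *C3*, *Cfb*, *Cfp* and *C5ar1* were higher in AAV-CTRL 1. Several cell type markers also differed between the AAV-CTRL libraries. A list of 16 macrophage markers summed to 1837 and 2797 CPM with AAV-CTRL and to 1671 and 2267 CPM with AAV-mVEGF-C, and 14 of the 16 were higher in AAV-CTRL 2 than in AAV-CTRL 1. Each C1q chain had this same order of the 4 libraries, whereas *C4b* and *C3ar1* were lowest in AAV-CTRL 1. A list of 13 neutrophil markers summed to 29747 and 13311 CPM with AAV-CTRL and to 17671 and 19397 CPM with AAV-mVEGF-C, and 0 of the 13 were higher in AAV-CTRL 2. *C3* had the same order of the 4 libraries, and so did the sums of 11 monocyte markers (3470 to 4152 CPM) and 5 general leukocyte markers (3102 to 3476 CPM). *Cfb*, *Cfp* and *C5ar1* did not have it: *Cfb* and *Cfp* were lowest in AAV-mVEGF-C 1, and *C5ar1* was highest in both AAV-mVEGF-C libraries. In the fibroblast list, with sums of 1216 and 2127 CPM against 817 and 1210 CPM, 9 of 10 genes were higher in AAV-CTRL 2. Other lists also differed between the AAV-CTRL libraries: 8 of 8 B cell markers (311 and 705 CPM in sum), 7 of 8 endothelial and 4 of 5 microglial markers were higher in AAV-CTRL 2, and 0 of 7 mast cell markers were (2553 and 1772 CPM). No gene of these lists was at 0 in any library. The part of these cells in the complement values was not tested.

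**Figure D4:**
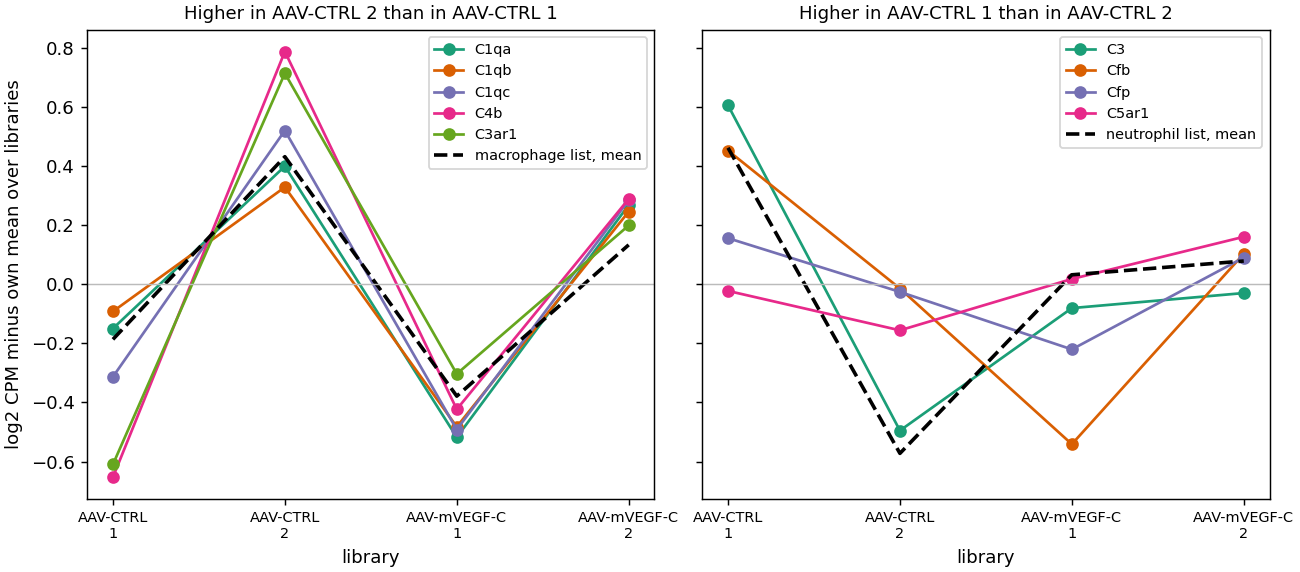
Level of each gene as log2 CPM minus its own mean over the 4 libraries (vertical axis) by library (horizontal axis), with the genes higher in AAV-CTRL 2 on the left and those higher in AAV-CTRL 1 on the right, and dashed lines for the mean of the macrophage and neutrophil marker lists. On the left all 5 genes and the macrophage list share the order of the second libraries above the first, and on the right *C3* follows the neutrophil list while *Cfb* is lowest in AAV-mVEGF-C 1.

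Between groups, 15 of the 16 macrophage markers had a lower mean with AAV-mVEGF-C (median log2 fold change -0.28) and 0 had an unadjusted p under 0.05. All 10 fibroblast markers had a lower mean, 4 of them at an unadjusted p under 0.05, against 1.18% of all genes tested that were lower at that threshold. The neutrophil list was split, with 8 higher and 5 lower. All 8 B cell markers had a lower mean (median -0.72, 2 at an unadjusted p under 0.05). Their sums were 311 and 705 CPM with AAV-CTRL and 317 and 340 CPM with AAV-mVEGF-C, so the lower summed mean rested on AAV-CTRL 2. Of 7 mast cell markers 6 had a lower mean (median -0.56, 4 at an unadjusted p under 0.05). A higher mean was found for 6 of 7 T cell and 6 of 7 dendritic cell markers. Of these, 2 and 0 had an unadjusted p under 0.05, against 1.46% of all genes tested that were higher at that threshold.

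Likeness of pattern was measured as the root mean square difference of centred log2 CPM over the 4 libraries, among 19806 genes. The genes nearest to *C1qa* were *Dbp*, *Prmt2* and *Rhoc*, at 0.0064, 0.033 and 0.036 log2 units, and *C1qb* was the 7th nearest at 0.050. *C1qc* was the 48th nearest to *C1qa*. *C1qb* was nearest to *Bambi-ps1*, *Rhoc* and *Gfpt2*, and *C1qc* to *Pdk2*, *Hyal2* and *Ephb6*. The nearest genes to *C3* were *Sgo1*, *Ceacam10* and *Klhl23*, at 0.015 and 0.021 log2 units for the first pair. Those of *C4b* were *Atp1b2*, *Lhx3* and *Kctd11*, and *C3ar1* was its 11th nearest at 0.086. *C3ar1* was nearest to *Stab1*, a scavenger receptor of macrophages, at 0.038, followed by *Ccdc136* and *Endou*. *Cfp* was nearest to *Rn7sk* and *Gps2*, *Cfb* to *Aldh6a1*, *Ccnjl* and *Mthfd2*, and *C5ar1* to *Lsr*, *Qsox1* and *Taf11*. With 4 libraries many genes share a profile, and the distances are descriptions.

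The other complement genes comprised 43 genes of the classical and lectin start, the terminal pathway, regulators and receptors. Of these, 28 passed the filter, 13 with a higher and 15 with a lower mean in the AAV-mVEGF-C group and a median log2 fold change of -0.055. Among the 18 of them with a mean of at least 1 TPM, 5 were higher and 13 lower. None passed an adjusted p of 0.05 by edgeR, DESeq2 or limma-voom. At an unadjusted p under 0.05 by edgeR 4 were called, all with the lower mean in the AAV-mVEGF-C group. Of all genes tested, 1.18% were called in that direction. With the experiment number as a block only 1 of the other complement genes had an unadjusted p under 0.05 by edgeR. In 7 both AAV-mVEGF-C libraries were below both AAV-CTRL ones, against 15.2% of all genes. In 1, *Itgax*, both were above, against 16.8% of all genes.

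Among 14 genes of the classical and lectin start, 9 passed the filter. *C1s1*, the protease of the C1 complex that cuts C4 and C2, stood at 5.97 and 6.22 CPM with AAV-CTRL and at 2.02 and 3.41 CPM with AAV-mVEGF-C (log2 fold change -1.17, SE 0.40, unadjusted p = 0.0252 by edgeR). Ficolin A, encoded by *Fcna*, is a lectin pathway sensor of macrophages, and it stood at 2.62 and 2.15 CPM against 0.640 and 1.01 CPM (log2 fold change -1.53, SE 0.58, unadjusted p = 0.0384 by edgeR). These values rest on few reads, 25 to 117 per library for *Fcna*. *C1s1*, *C1ra* and *Cd55* have close copies (*C1s2*, *C1rb* and *Cd55b*), so their levels are uncertain where reads were shared between copies. *Fcnb*, the ficolin of neutrophils and monocytes and the most abundant of the list per length, stood at 183 and 64.5 CPM with AAV-CTRL and at 101 and 95.2 CPM with AAV-mVEGF-C. Like *C3*, it was highest in AAV-CTRL 1 and lowest in AAV-CTRL 2 (log2 fold change -0.33, SE 0.45). *C1ra*, the other C1 protease, stood at 9.26 and 16.9 CPM against 6.63 and 11.4 CPM. *C2*, whose gene lies 85 bases from *Cfb*, stood at 5.82 and 7.24 CPM against 2.71 and 5.58 CPM, and its log2 fold change was -0.66 (SE 0.44, unadjusted p = 0.182 by edgeR).

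The terminal components build the membrane pore. They were scarce: the 3 most abundant of 7 genes, *Hc* (which encodes C5), *C6* and *C8g*, had mean levels of 0.33, 0.22 and 0.197 TPM. *Hc*, *C6* and *C8a* passed the filter and *C8g* did not, and *C7* and *C9*, named for their values, had no read in any library.

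Regulators limit the cascade. Of 8 secreted regulators 6 passed the filter. *Vtn*, vitronectin, stood at 7.83 and 11.4 CPM with AAV-CTRL and at 5.30 and 5.90 CPM with AAV-mVEGF-C (log2 fold change -0.78, SE 0.31, unadjusted p = 0.0468 by edgeR). *Clu*, clusterin, stood at 8.45 and 13.6 CPM against 6.50 and 7.45 CPM, and *Serping1*, the C1 inhibitor, at 12.4 and 27.9 CPM against 10.9 and 13.9 CPM. In all 3 of these regulators AAV-CTRL 2 was the highest library, as it was for the fibroblast, macrophage, B cell, endothelial and microglial lists, and the part of these cells in the values was not tested.

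Of 6 membrane regulators 4 passed the filter. *Cd55*, which breaks up the C3-cutting enzymes on the cell's own surface, stood at 70.3 and 66.8 CPM with AAV-CTRL and at 52.2 and 48.9 CPM with AAV-mVEGF-C. Its libraries were closely matched within each group and did not overlap (log2 fold change -0.44, SE 0.15, unadjusted p = 0.0281 by edgeR). *Cr1l*, which encodes the rodent regulator Crry, stood at 53.5 and 48.4 CPM against 44.7 and 50.1 CPM, and overlapped. *Cd46* stood at 5.55 and 2.79 CPM against 3.17 and 1.96 CPM.

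Of 7 other complement receptor genes 6 passed the filter, and none had an unadjusted p under 0.05. *Itgam* and *Itgb2*, which together encode complement receptor 3, stood at 875 and 593 CPM and at 825 and 581 CPM with AAV-CTRL. With AAV-mVEGF-C they stood at 721 and 784 CPM and at 699 and 754 CPM, so that, as for *C3*, both AAV-mVEGF-C libraries lay between the AAV-CTRL ones. *Itgax*, the alpha chain of complement receptor 4, stood at 97.7 and 91.6 CPM against 102 and 105 CPM (log2 fold change 0.13, SE 0.15, unadjusted p = 0.393 by edgeR).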

How the data were processed

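Total RNA of sorted dural CD45+ cells was sequenced from 2 AAV-CTRL and 2 AAV-mVEGF-C libraries made with the SMARTer Stranded Total RNA-Seq Pico kit. Per the labels, reads were processed with FastQC, Trimmomatic, DRAGEN and Picard on mm10. The authors deposited a table of estimated counts per gene (8.185% of values with decimals) and a table of TPM summing to 1000000 per library. Replicates were not pooled in the tables. Estimated counts were rounded and tested with edgeR 4.0.16 in R 4.3.3 (filterByExpr, TMM, quasi-likelihood test, Benjamini-Hochberg adjustment), with 6.10 degrees of freedom and a common dispersion of 0.173. Standard errors are the log2 fold change over the root of F. DESeq2 1.42.0 and limma 3.58.1 (voom, and log2(TPM + 1) or log2(TPM + 0.1)) were alternatives. The scripts were tested on simulated data. Positions were taken from the GENCODE M21 annotation (GRCm38), where 54349 identifiers had an entry of the same version. The genes named are the 9 members, the 3 most abundant other complement genes of each role list with any at an unadjusted p under 0.05, and the 3 genes most like each member. Some genes that this rule names are not reported here. The members and lists were chosen with earlier results of these data known. The columns of the table and the titles number the libraries differently, and the title number was used. Same-numbered libraries did not deviate together, so no block entered the test. P-values measure the spread between 2 pools per group, numbered as separate experiments, with a variance estimate that also draws on other genes.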

Additional observations from a re-analysis of the deposited data

How the results depend on the processing

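Under the 8 alternatives that keep all 4 libraries (DESeq2, limma-voom, replicate block, RLE size factors, no low-count filter, at least 10 reads in every library, log2(TPM + 1) and log2(TPM + 0.1)), no member changed direction and none passed an adjusted p of 0.05. The lowest adjusted p over these was 0.796, for *Cfb*, whose log2 fold change ranged from -0.91 to -0.42. On the log2(TPM + 0.1) scale the median over all genes was -0.11, and the members' median was lower than it by 0.25 (difference -0.25). There 65.8% of the calls at an unadjusted p under 0.05 were lower, and with log2(TPM + 1) 75.4%, against 44.7% by edgeR on counts.

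Leaving out 1 library decided the direction of most members: 12 of 108 member values under alternatives were reversed, all when a library was left out. The log2 fold change ranged from -0.66 to 0.13 for *C1qa* (0.09 without AAV-CTRL 2, 0.13 without AAV-mVEGF-C 1), from -0.61 to 0.12 for *C1qb* (0.031 and 0.12) and from -0.64 to 0.27 for *C1qc* (0.27 and 0.13). It ranged from -0.65 to 0.42 for *C3* (0.42 without AAV-CTRL 1), from -0.83 to 0.64 for *C4b* (0.64 without AAV-CTRL 2, 0.06 without AAV-mVEGF-C 1) and from -0.76 to 0.59 for *C3ar1* (0.59 and 0.01). It ranged from -0.28 to 0.03 for *Cfp* (0.031 without AAV-mVEGF-C 1), from -0.78 to -0.13 for *Cfb* and from 0.11 to 0.26 for *C5ar1*. Counts of members with an adjusted p under 0.05 ranged from 0 to 2 when 1 library was left out (2 without AAV-CTRL 1, *C4b* and *C3ar1*, where 412 of all genes passed), and counts at an unadjusted p from 0 to 4 (4 without AAV-CTRL 1 and 4 without AAV-CTRL 2). In these settings 1728 and 6466 of all genes were called at an unadjusted p under 0.05, against 523 with all libraries. Other complement genes at an unadjusted p under 0.05 ranged from 0 to 10 (10 without AAV-CTRL 1, 8 without AAV-CTRL 2, 0 without AAV-mVEGF-C 1, 1 without AAV-mVEGF-C 2, where 1728, 6466, 164 and 525 of all genes were called), and at an adjusted p from 0 to 2. The summed TPM of the C1q chains stayed lower with AAV-mVEGF-C, with differences of -256 to -9.99 TPM, as did that of the 9 genes (-296 to -62.6 TPM). Summed in CPM instead, an alternative added after seeing the data, the C1q difference ranged from -274 to 64.1 CPM and was reversed without AAV-CTRL 2 (46.9 CPM) and without AAV-mVEGF-C 1 (64.1 CPM), and that of the 9 genes ranged from -475 to -37.5 CPM.

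Over all genes, the count at an adjusted p under 0.05 was 0 with edgeR, 77 with DESeq2, 268 without the filter and 2 to 2058 when 1 library was left out. With the replicate block 11 genes passed, no member changed its call and 1 other complement gene had an unadjusted p under 0.05. Same-numbered libraries had correlated deviations of -0.134, so the crossed pairing was added after seeing the data, and it gave 54 genes and 1 other complement gene. The causes were not tested. Thinning of the reads was not run, and values of genes with few reads, such as *Fcna* with 25 to 117, carry more counting error.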

Other observations

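TPM and CPM kept different proportions between libraries for *Cfb* and *C4b*. TPM per CPM, which depends on the transcript length the authors' pipeline assigned, ranged 1.60-fold over the libraries for *Cfb* (0.476 and 0.390 with AAV-CTRL, 0.297 and 0.318 with AAV-mVEGF-C) and 1.46-fold for *C4b* (0.176 and 0.144, 0.121 and 0.121). It ranged 1.14-fold to 1.19-fold for the other 7 members and 1.17-fold for the median of all genes tested. The transcript isoforms behind these 2 genes were not analysed here.

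*Vsig4*, chosen after its values were seen, encodes a complement receptor of tissue macrophages and had 17 reads in AAV-CTRL 2 and 7 in AAV-mVEGF-C 2, and none in AAV-CTRL 1 and AAV-mVEGF-C 1. It did not pass the filter and was not tested. The second library of each group was also the one with the higher C1q chains.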
